A study of Mus musculus with 170 samples.

Results

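Integrins are the main receptors with which cells hold on to the extracellular matrix. Each receptor is a dimer of an alpha and a beta chain, and the pair decides the ligand: alpha 3, alpha 6 and alpha 7 with beta 1 bind laminin, alpha 5 with beta 1 binds fibronectin, alpha 4 and alpha 9 with beta 1 bind fibronectin and other partners such as VCAM1, and alpha v joins several beta chains on ligands that carry an RGD motif. Beta tails have no enzyme activity of their own, and integrin-linked kinase (Ilk) is a scaffold that ties them, with PINCH and parvin proteins, to actin. In the embryonic heart, integrins anchor cardiomyocytes to the matrix between the muscle wall and the endocardium, and in the developing vessel wall they carry endothelial migration. Described here are 10 genes of this system, Itga3, Itga4, Itga5, Itga6, Itga7, Itga9, Itgav, Itgb1, Itgb5 and Ilk. They were chosen by name, but with earlier results of these data known. All 10 have a row among the 40549 genes of the deposited table, and none was used to sort the cells into classes.

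Transcripts were measured by Smart-seq2, a full-length method for single cells, in the ventricular part of C57BL/6 mouse hearts at E9.5. The values are TPM (transcript abundance corrected for transcript length and scaled to a common total per cell). Control embryos, labelled wild type, were homozygous for the loxP allele of Dgcr8, carried a ROSA26 mT/mG membrane reporter and had no Cre; the conditional knockout (cKO) embryos carried the same floxed alleles and reporter with Cre from the Mesp1 locus, which acts in the mesoderm progenitors of heart muscle, endocardium and epicardium alike. Dgcr8 is the RNA-binding partner of Drosha, and cells that lose it stop making most microRNAs. Of 170 labelled cells, 143 have a column in the table; the labels place them in 2 sequencing batches but name no embryo, so each genotype is 1 sample, cells are not replicates, no test was run, and every SD below is the scatter across cells. Levels are log2(TPM + 1), and a difference is the mean level in cKO cells minus that in control cells.

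Clustering on 55 marker genes gave a cardiomyocyte-like (CM-like) class of 27 control cells (17 in batch 1, 10 in batch 2) and 65 cKO cells (32 and 33), with all 15 cardiomyocyte markers above the other cells. The endothelial-like (22 cells), epicardial-like (13, with 8 of 14 mesenchymal markers raised as well) and erythroid-like (3) classes held control cells only, and 13 further cells, rich in mitochondrial transcripts, stayed unnamed. The paper reports that cKO cardiomyocytes came apart more easily than control ones, so more of them were picked by hand as single cells. It also proposes that cKO endocardial cells may have been damaged in dissociation. Class sizes therefore do not measure the make-up of the tissue. The part of this picking, which depends on adhesion, in the integrin differences was not tested. Depth is not kept in TPM; the median number of detected genes in CM-like cells was 8458 and 9679 in control batches 1 and 2, and 9877 and 7786 in cKO batches 1 and 2. The level of Dgcr8 differed by −0.72 between cKO and control CM-like cells, with 0.17 in batch 1 and −1.69 in batch 2, and values per gene do not resolve a deleted exon. Xist reached a TPM of 1 in 62 of 65 cKO and 0 of 27 control CM-like cells, and the Y-linked Ddx3y in 0 and 19, so the sex of the embryos sampled and the genotype cannot be told apart. Cdh5, the cadherin of endothelial junctions, reached a TPM of 1 in 0 of 92 CM-like cells and in 22 of 22 endothelial-like cells. Other endothelial markers were present in CM-like cells. Pecam1 reached that level in 26 of 27 control and 65 of 65 cKO cells, with a difference of 0.83 (0.70 and 0.78 in batches 1 and 2). Kdr did so in 6 of 27 and 8 of 65, with a difference of −0.23, and Tek in 4 of 27 and 3 of 65, with −0.20. Over the 13 endothelial markers the median difference was −0.03.

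Microprocessor products act through seed matches in 3′ UTRs, so the sites of some heart microRNAs in the 10 genes are shown first. The study names miR-1, miR-133a, miR-378a, miR-26a, miR-30, miR-126a and miR-541 among those of the E9.5 heart. Searched were miR-26a, miR-30a, miR-30c, miR-30e, miR-126a and miR-541, and the search was chosen after the differences were known. Not searched were miR-1, miR-133a, miR-378a and many other microRNAs in the study's list of the most abundant, several of them above those searched. That list does not hold miR-30e. Below are the mature sequences of miR-26a-5p and miR-541-5p with the seed (bases 2 to 8) in capitals, and the matches to miR-26a-5p in Itga3, Itga5 and Itgb1 with the 7 bases complementary to the seed in capitals (GENCODE annotation, GRCm38, transcript strand).
mmu-miR-26a-5p: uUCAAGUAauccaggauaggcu
mmu-miR-541-5p: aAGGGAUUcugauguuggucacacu
Itga5, chr15:103345130-103345152, minus strand: cagagacaTACTTGAagggccag
Itgb1, chr8:128732680-128732702, plus strand: ttgtgagtTACTTGAtcctgtaa
Itga3, chr11:95044769-95044791, minus strand: gggtgtgaTACTTGAatgtagca

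The match to miR-26a-5p was at position 125 of the 983-base 3′ UTR of Itga5, position 600 of 1112 in Itgb1 and position 1012 of 1321 in Itga3. Among genes with a 3′ UTR of like length, 6.94% held such a match for Itga5, 8.08% for Itgb1 and 9.77% for Itga3. Over the 11881 tested genes with a 3′ UTR it was 11.9%, with 13.1% of genes past the fold upward (median 3′ UTR 1378 bases) and 7.29% of those past it downward (median 727). The match to miR-541-5p, AATCCCT, was found in Itga4 alone of the 10 genes, where 28.2% of genes with a 3′ UTR of like length and 9.28% of all genes held it. The match of the miR-30 family (miR-30a, miR-30c and miR-30e-5p share the seed GUAAACA), which 17.2% of all genes held, and that of miR-126a-3p, which 0.20% held, were found in none. A match of letters is a description, not a site shown to act, and Itga6, Itgav and Ilk held none of the matches searched.

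In CM-like cells, 5 of the 10 genes were higher in cKO: Itga5, Itga6, Itgav, Itgb1 and Ilk. Counted as higher was a pooled difference of at least 1 with a positive sign in both batches. Of the 15057 genes seen in more than 10 CM-like cells, 6.38% met this rule. The same downward was met by 7.19% of these genes and by 0 of the members. A stricter filter kept 6808 genes, those that the majority of CM-like cells in control or in cKO expressed at 1 TPM or above. Of these, 11.7% were higher and 13.6% lower. The 5 genes named above were the only members it kept. Of the 10, 9 passed the main filter of more than 10 CM-like cells. The exception was Itga7. The median difference of those 9 was 1.08 (0.69 in batch 1 and 0.40 in batch 2), against 0.03 over all tested genes (0.18 and −0.20). With Itga7 included, the median of all 10 was 0.57. Each of the 5 differences was smaller than the larger of the SDs of its genotypes, so that the cells of control and cKO overlapped for every gene. The 10 genes averaged together gave 2.70 ± 0.81 per control cell (lowest 1.36, median 2.82, highest 4.21) and 3.44 ± 0.73 per cKO cell (1.08, 3.50 and 5.01), and in either genotype the median cell had 6 of the 10 at a TPM of at least 1.

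**Figure D1:**
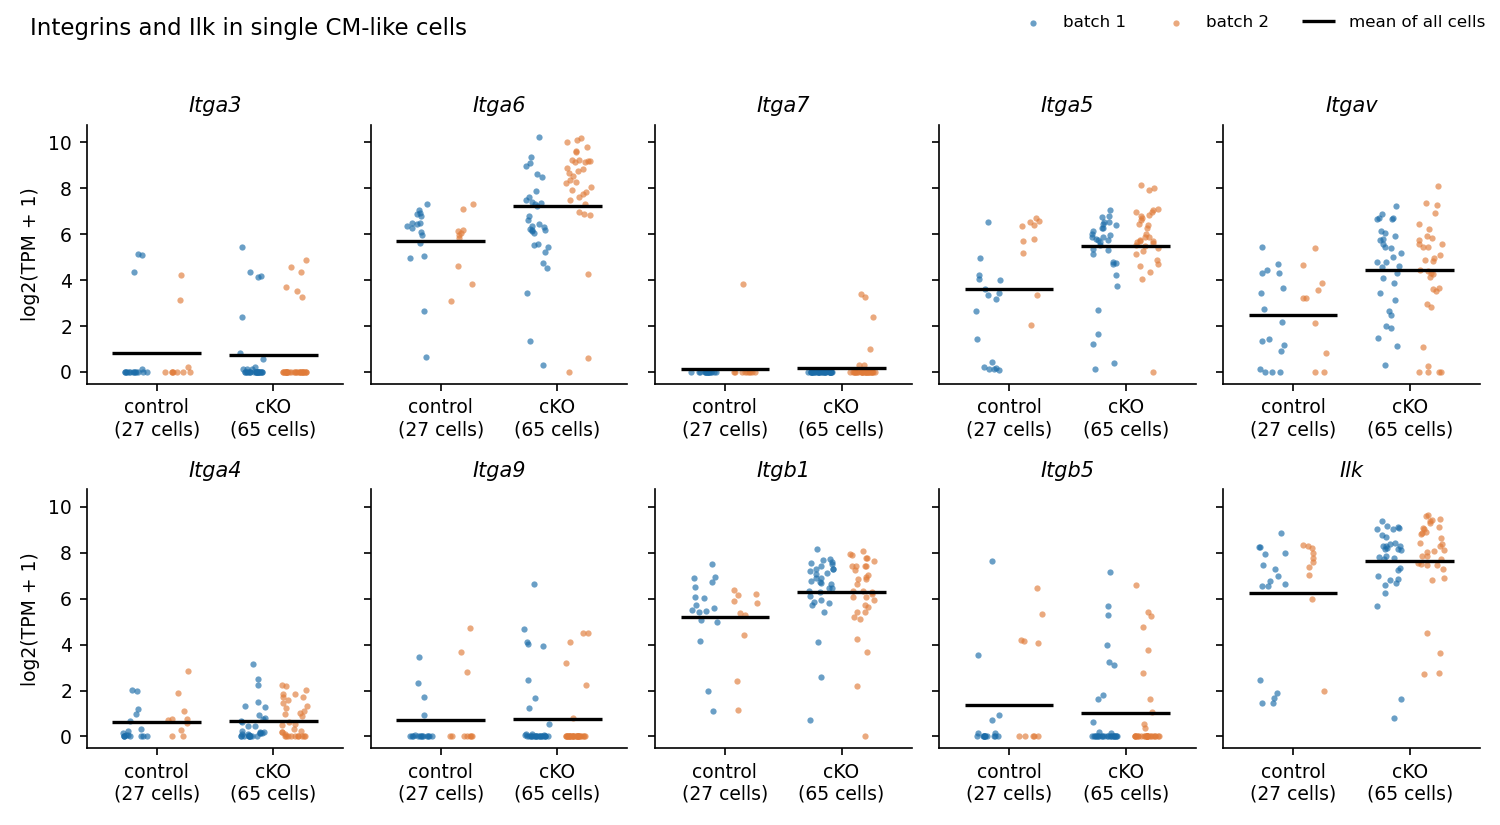
Level of each gene in single CM-like cells, as log2(TPM + 1), for 27 control and 65 cKO cells; points are cells, coloured by sequencing batch, and the black line is the mean of all cells of a genotype. Itga6 reached 10.25 in cKO against 7.31 in control, while Itga3, Itga7, Itga9 and Itgb5 were at 0 in most cells of either genotype.

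Among the laminin receptors, Itga6 was the most abundant alpha chain. Its gene lies on chromosome 2 (GRCm38, 71745616 to 71858416, plus strand). In control cells its level was 0.64 at the lowest, 6.13 at the median and 7.31 at the highest, and in cKO cells 0, 7.63 and 10.25. The ranges overlapped, with the first quartile of cKO cells at 6.25, near the control median, while 39 of 65 cKO cells lay above every control cell, the most of any of the 10 genes. The mean was 5.71 ± 1.57 in control and 7.22 ± 2.32 in cKO, a difference of 1.51, which was 0.69 in batch 1 and 2.35 in batch 2. In TPM, mean Itga6 was 72.8 in control and 310.8 in cKO, a ratio of 4.27.

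The other laminin-binding chains were sparse. Itga3, which also pairs with beta 1, was detected (TPM above 0) in 25.9% of control cells (7 of 27, 95% CI 11.1 to 46.3) and 26.2% of cKO cells (17 of 65, 16.03 to 38.5). Its mean was 0.82 ± 1.76 and 0.72 ± 1.57, a difference of −0.10 (−0.16 and −0.02 in batches 1 and 2), with a median of 0 in both genotypes. Itga7, the laminin receptor chain of mature muscle, was detected in 1 control cell and 6 cKO cells, 9.23% (3.46 to 19.02), all of batch 2, and its differences of 0.02 pooled and −0.06 in batch 2 rest on those cells.

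Itga5, the alpha chain of the main fibronectin receptor, had the second largest difference of the 10. It lies on chromosome 15 (103344286 to 103366763, minus strand). Control cells spread from 0.09 through a median of 3.61 to 6.69, and cKO cells from 0 through 5.77 to 8.13. Most cKO cells gathered in the upper part of the control range, with 59 of 65 above the control median (90.8%, 95% CI 80.98 to 96.5) and 13 above every control cell. The mean rose from 3.60 ± 2.35 to 5.47 ± 1.71, by 1.86. The batches disagreed in size: 2.54 in batch 1, where control cells averaged 2.51, and 0.40 in batch 2, where they averaged 5.47, so that the control cells of the batches stood further apart than the genotypes did. The cKO means were 5.05 and 5.88. The share of cells at a TPM of at least 10 was 51.9% (31.95 to 71.3) in control and 90.8% (80.98 to 96.5) in cKO.

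Itgav, the chain that recognises RGD ligands such as fibronectin and vitronectin, showed the largest difference and ranked 166th from the top among the 15057 genes. It lies on chromosome 2 (83724397 to 83806916, plus strand). The lowest, median and highest control cells were at 0, 2.75 and 5.46, and the cKO cells at 0, 4.83 and 8.13. The genotypes overlapped across the whole control range, and 23 of 65 cKO cells exceeded it. The mean went from 2.49 ± 1.86 to 4.43 ± 2.09, a difference of 1.94 with 2.22 in batch 1 and 1.59 in batch 2, the ratio of mean TPM being 4.33. Detection was 22 of 27 control cells, 81.5% (61.9 to 93.7), and 61 of 65 cKO cells, 93.8% (84.99 to 98.3).

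Itga4 and Itga9, the alpha chains that bind VCAM1 and tenascin among others, were not past the fold. Itga4 was detected in 66.7% of control (46.04 to 83.5) and 70.8% of cKO cells (58.2 to 81.4), yet always at a low level, with 2.83 as the highest control and 3.18 as the highest cKO cell. Its difference was 0.06, of opposite sign in the batches (0.11 and −0.10). Itga9 was detected in 29.6% (13.8 to 50.2) and 29.2% (18.6 to 41.8), and its difference of 0.02 joined 0.43 in batch 1 to −0.54 in batch 2.

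Itgb1, the common partner of most of these alpha chains, rose least of the 5 but by like amounts in the batches. It lies on chromosome 8 (128685654 to 128733200, plus strand). Control cells ran from 1.09 through 5.60 to 7.53, and cKO cells from 0 through 6.68 to 8.18. The ranges overlapped almost fully, with 53 of 65 cKO cells above the control median and 11 above every control cell. The means of 5.22 ± 1.70 and 6.30 ± 1.61 differed by 1.08, with 1.02 in batch 1 and 1.28 in batch 2. Itgb1 was close to the threshold of 1 and passed it under 4 of the 10 alternative settings that changed any member's difference, with values from 0.59 to 1.53.

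Itgb5, a beta chain that joins alpha v alone, was detected in 40.7% of control cells (11 of 27, 95% CI 22.4 to 61.2) and 32.3% of cKO cells (21 of 65, 21.2 to 45.1). Its highest levels were 7.64 and 7.15 and its median 0 in both. The pooled difference of −0.38 combined 0.25 in batch 1 with −1.45 in batch 2, where 5 of 10 control and 10 of 33 cKO cells had any Itgb5.

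Ilk, the scaffold downstream of the beta tails, had the highest pooled mean level of the 10 genes in either genotype, although in cKO cells of batch 2 Itga6 stood higher (7.96 against 7.79). It lies on chromosome 7 (105736592 to 105742925, plus strand). Control cells ranged from 1.44 through a median of 7.30 to 8.85, and cKO cells from 0.80 through 8.14 to 9.67. Both genotypes had a main body of cells and a small group of low ones, and 21 of 27 control cells (77.8%, 57.7 to 91.4) against 61 of 65 cKO cells (93.8%, 84.99 to 98.3) had a TPM of at least 10. The mean rose from 6.27 ± 2.52 to 7.66 ± 1.86, a difference of 1.39 with 1.73 in batch 1 and 0.72 in batch 2. In mean TPM, to which the low cells add little, it was 163.1 in control and 311.8 in cKO, a ratio of 1.91.

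**Figure D2:**
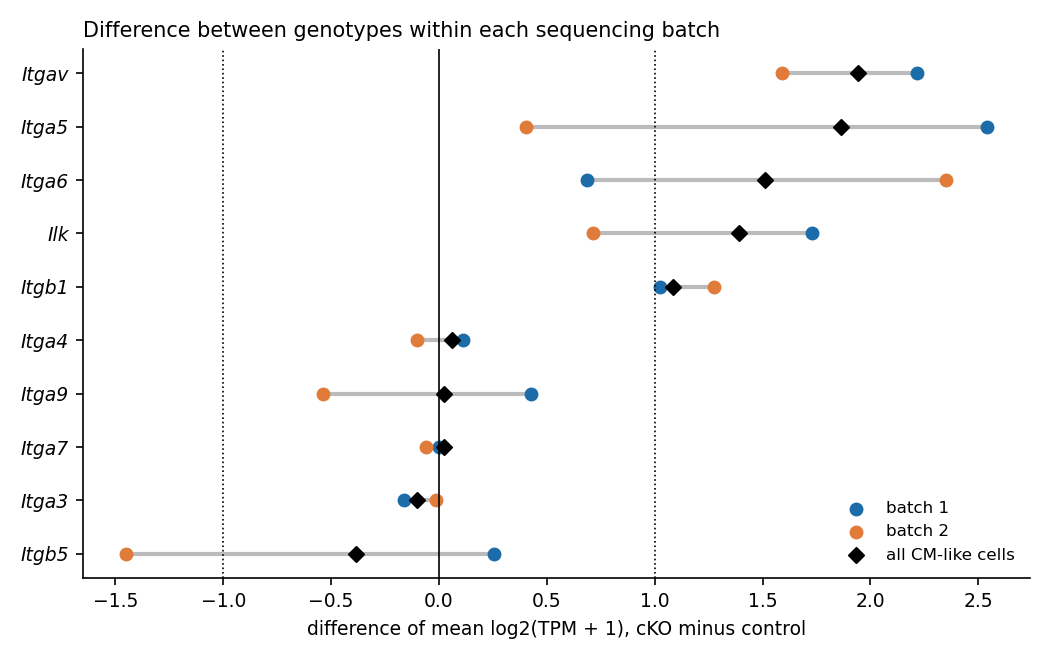
Difference of mean log2(TPM + 1) between cKO and control CM-like cells for each gene, pooled (diamonds) and within batch 1 and batch 2 (circles); dotted lines mark −1 and 1. Itgav, Itga5, Itga6, Ilk and Itgb1 were above 0 in both batches, and Itgb5 spanned −1.45 to 0.25.

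Some values of the cells moved with genotype beside these genes. Mitochondrial transcripts took a median of 6.24% and 6.25% of TPM in control CM-like cells of batches 1 and 2, against 3.11% and 2.77% in cKO cells, and 1 control cell held 35446 TPM in the summed 7 erythroid markers. Leaving out the CM-like cells with over 20% mitochondrial TPM or over 100 TPM in erythroid markers, an alternative chosen after seeing the data, left 18 control and 51 cKO cells, in which the differences were 2.40 for Itga5, 2.05 for Itgav, 1.02 for Ilk, 0.97 for Itgb1 and 0.95 for Itga6, so that 3 of the 5 were still past 1. Of the marker lists of other cells, none of 13 endothelial and none of 6 epicardial markers was past the fold in CM-like cells, while 1 of 14 mesenchymal and 1 of 6 foregut markers (Krt8) were higher, 1 of 7 erythroid markers was lower, and of the 15 cardiomyocyte markers 2 were higher and 3 lower. The summed cardiomyocyte markers ranged from 39077 to 118740 TPM in control (median 67029) and from 43637 to 131983 in cKO (median 91896). The summed mesenchymal markers ranged from 1.503 to 576.5 TPM in control (median 80.9) and from 3.82 to 1893 in cKO (median 279.5), with 1 and 2 of the 14 markers at 0 in every cell, and the summed foregut markers from 0 to 369.3 (median 8.00) and from 0 to 1929 (median 150.2). Per gene, the median difference was 0.01 over the 14 mesenchymal and 0.04 over the 6 foregut markers. Krt8 went from 3.13 to 6.55, by 3.42. Epcam, another foregut marker, reached a TPM of 1 in 2 of 27 control and 0 of 65 cKO cells. In cKO, 1 of the 6 foregut markers was at 0 in every cell. The part of these values in the integrin differences was not tested.

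TPM is per length, so the chains can be weighed against each other. In control CM-like cells Itga6 made up 49.4% of the summed mean TPM of the 18 alpha chain genes, Itga5 20.8%, Itgad 10.7% and Itgav 6.87%, and in cKO cells 69.2%, 14.9%, 0.86% and 9.76%. Without the cell of highest Itgad in each genotype, the shares of Itgad were 6.38% and 0.28%. The sum itself was 147.5 TPM in control and 449.1 in cKO. The larger share of Itga6 in cKO was found in batch 2 (35.7% in control, 73.95% in cKO) and not in batch 1 (61.2% and 60.01%). Among the 9 beta chain genes, Itgb1 held 73.6% in control and 83.8% in cKO, of sums of 76.1 and 133.4 TPM, with 80.1% and 81.1% in batch 1 and 61.6% and 86.8% in batch 2. Itgb5 held 18.9% and 5.62%, but 1 control cell carried 51.1% of the control Itgb5 TPM, and without it the control share was 10.6%.

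Itgb1 reached a TPM of 1 in 27 of 27 control and 63 of 65 cKO cells, so the share of cells with Itgb1 and an alpha chain was close to the share with that alpha chain. Itgb1 and Itga6 both reached a TPM of 1 in 26 of 27 control and 61 of 65 cKO cells, Itgb1 and Itga5 in 77.8% (57.7 to 91.4) and 92.3% (82.95 to 97.5), and Itgb1 and Itgav in 70.4% (49.8 to 86.2) and 89.2% (79.1 to 95.6). Itgb5 met its only partner, Itgav, in 5 of 27 control and 14 of 65 cKO cells. Within the 65 cKO cells, after the mean of each batch was subtracted, the levels of the genes were only weakly ordered together. The highest Spearman's rho was 0.28, between Itga6 and Itgb1, followed by 0.25 between Itgav and Itgb1 and 0.20 between Itga5 and Itgb1. That of Itga5 with Ilk was −0.01. These are descriptions over cells that share libraries and scaling.

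**Figure D3:**
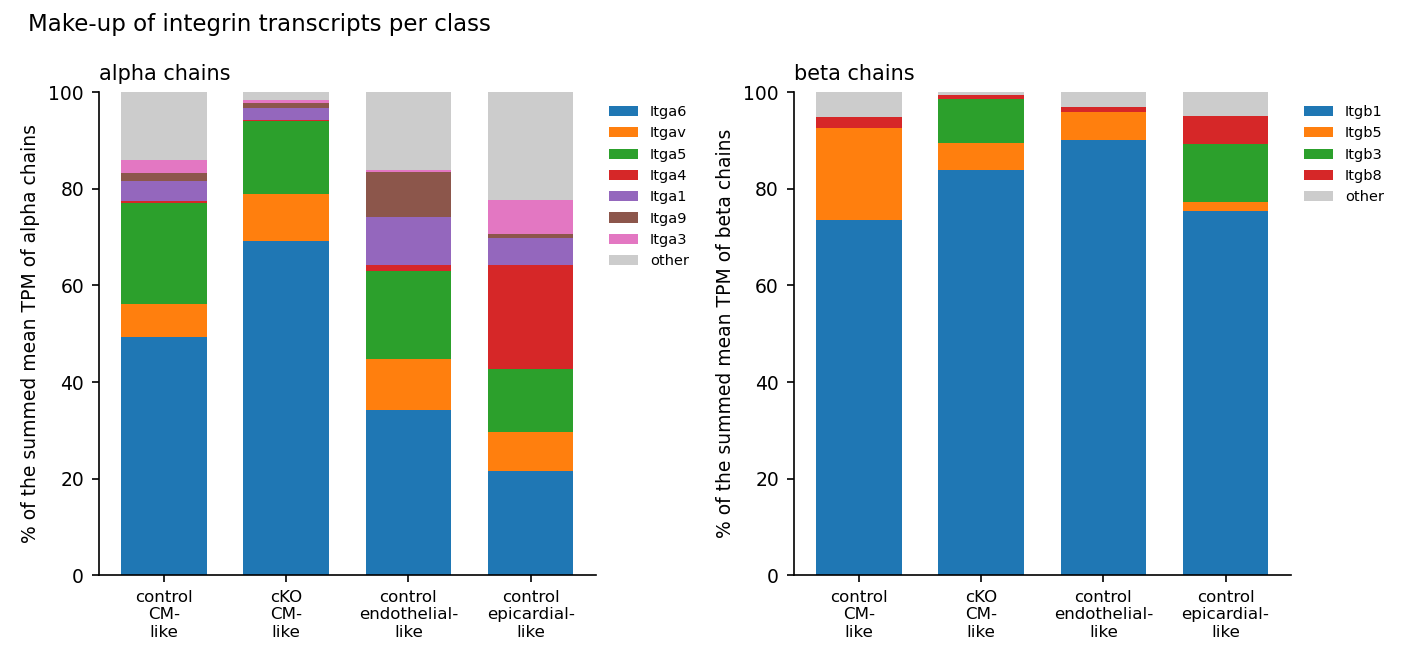
Share of each chain in the summed mean TPM of all alpha chain genes (left) and all beta chain genes (right) in 4 groups of cells, as stacked bars from 0 to 100%. Itga6 took 69.2% of alpha chain TPM in cKO CM-like cells, and Itgb3, nearly absent from control CM-like cells, took 9.20% of beta chain TPM in cKO.

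Of the other integrin chains, 9 of 19 passed the filter, 1 was higher and 0 were lower, with a median difference of −0.13. The one that rose was Itgb3, the beta chain that with alpha v forms the vitronectin receptor of angiogenic vessels and with Itga2b the fibrinogen receptor of platelets. Its level in control cells was 0 at the lowest, 0.06 at the median and 0.39 at the highest, and in cKO cells 0, 1.20 and 6.63. No control CM-like cell reached a TPM of 1 (0 of 27, which allows a share of up to 11.1%), whereas 33 of 65 cKO cells did. The mean went from 0.10 ± 0.12 to 2.10 ± 2.22, by 2.00, with 2.51 in batch 1 and 1.53 in batch 2. Itgb3 and Itgav both reached a TPM of 1 in 31 of 65 cKO cells, 47.7% (35.1 to 60.5). The smallest difference of the list was that of Itgad, a leukocyte chain, at −0.48.

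The ligands were read in the same cells. Of 11 laminin genes, 7 passed and 2 were higher, with 0 lower and a median of 0.62; Lama5, the alpha chain of laminins in most basement membranes, differed by 1.67 (1.44 and 1.66 in batches 1 and 2), Lamb2 by 1.01, and Lama4, the vascular laminin chain, by 0.04. Of 15 fibronectin, RGD and other ligands, 12 passed, 3 were higher and 0 lower, with a median of 0.46. Fibronectin, Fn1, went from 3.98 to 6.23, a difference of 2.24 (2.36 and 2.08). Fbn2, a fibrillin of embryonic microfibrils, differed by 2.41 (2.00 and 2.80), and Mfge8, a secreted RGD protein that binds alpha v integrins, by 1.72 (1.71 and 1.37). Vcam1, the counter-receptor of alpha 4 beta 1, had the lowest value, −0.59.

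Among 6 partners of ILK, 5 passed, 2 were higher and 0 lower, and the median was 0.80. Parva, the alpha-parvin that joins ILK to actin, went from 4.33 to 6.08, by 1.74 (2.13 and 0.93). Lims2, which encodes PINCH2, differed by 1.24 (0.62 and 1.71) but had TPM above 0 in 2 of 27 control cells against 16 of 65 in cKO, so it passed the filter through the genotype where it was high. Without Lims2 the list had 1 gene higher and a median of 0.74. Lims1, which encodes PINCH1, differed by 0.23. All 5 measured partners had a positive difference in both batches.

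Of 17 activators and adaptors 14 passed, 1 was higher and 1 lower, with a median of 0.29. Over all tested genes, 6.38% were higher and 7.19% lower. Tln1, the widespread talin that switches integrins on by binding beta tails, was higher by 1.02 (1.18 and 0.59), and Tln2, the talin of striated muscle, fell from 2.54 to 0.90, a difference of −1.64 (−1.04 and −2.29). Bcar1, the adaptor p130Cas, had the largest pooled difference, 1.86, which was 2.94 in batch 1 and −0.05 in batch 2 and therefore did not count. Of 11 inhibitors and recycling factors 9 passed, 1 was higher and 1 lower, with a median of −0.02. Rab11a, a GTPase of recycling endosomes, was higher by 1.49 (2.00 and 0.82). Itgb1bp1, which encodes ICAP1, a protein that competes with talin for the beta 1 tail, fell from 3.16 to 1.39, a difference of −1.77 (−1.43 and −2.37).

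**Figure D4:**
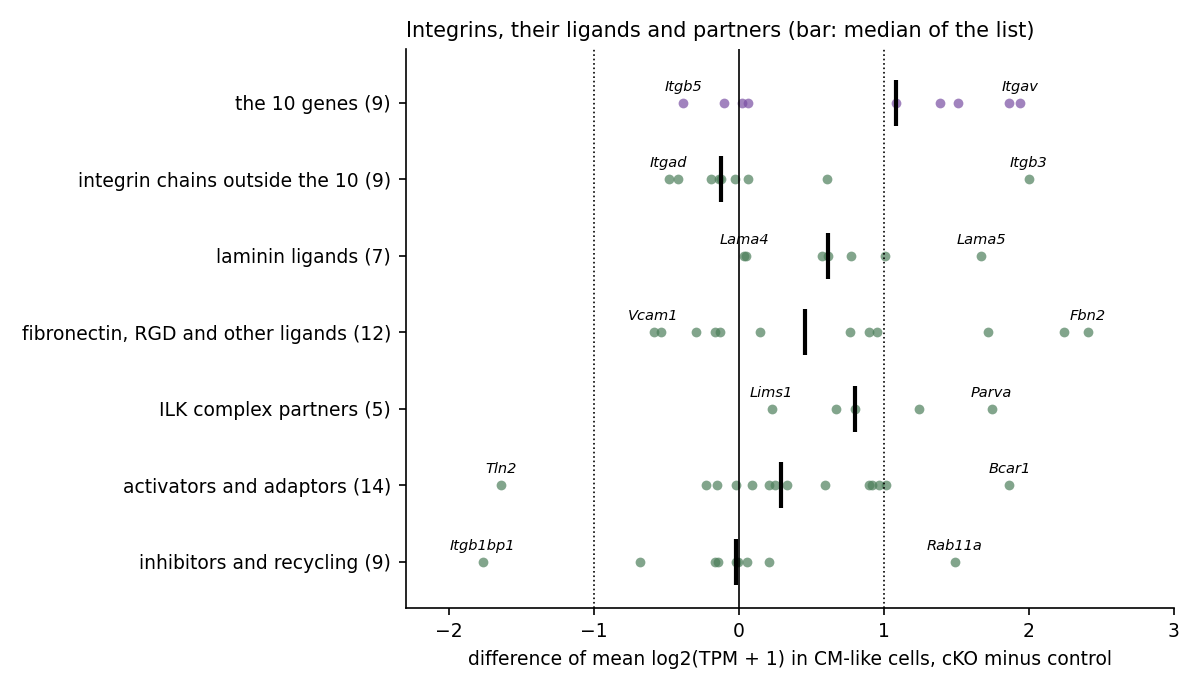
Differences of mean log2(TPM + 1) between cKO and control CM-like cells for the 10 genes and 6 lists of related genes, with the number of genes past the filter in brackets; each point is a gene, black bars are list medians, and the genes of largest and smallest difference are named. The median was 1.08 for the 9 of the 10 genes past the filter, 0.80 for the ILK partners and −0.13 for the other integrin chains.

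Cells of the control ventricles also show where these genes stand among cell classes. In the endothelial-like class, 4 of the 8 members that passed the filter of that comparison were higher than in control CM-like cells by the same rule, where 19.1% of 13186 tested genes were higher and 9.03% lower. In the epicardial-like class it was 5 of 8, where 17.5% of 11947 genes were higher and 8.48% lower. No member was lower in either class. Of the members counted as higher, Itga9 was detected in 8 of 27 control CM-like and 18 of 22 endothelial-like cells. Itga3 was detected in 7 of 27 control CM-like and 9 of 13 epicardial-like cells. Itga9 and Itga3 thus passed these filters only with the cells of the class where they were high.

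Itga4 and Itga9 separated the classes most. Itga4 stood at a mean of 5.11 ± 2.07 in epicardial-like cells (lowest 0.18, median 5.88, highest 6.99), 1.78 ± 0.98 in endothelial-like cells (0, 1.97 and 3.75) and 0.62 ± 0.78 in control CM-like cells, where no cell exceeded 2.83. Epicardial-like exceeded CM-like by 4.49 (3.83 and 4.59 in batches 1 and 2), more than the SD of either class, and the integrin of alpha 4 and beta 1 is known for the attachment of the epicardium to the heart. Itga9, known for its role in lymphatic and venous valves, was at 3.57 ± 2.33 in endothelial-like cells (0, 4.73 and 6.63), detected in 18 of 22, and at 0.61 ± 1.498 in epicardial-like cells. Endothelial-like exceeded CM-like by 2.84 (2.04 and 2.92), again more than either SD, while CM-like and epicardial-like did not differ beyond theirs.

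In endothelial-like cells Itga4 also exceeded control CM-like cells by more than either SD, by 1.16 (1.14 and 0.98). The differences of the other members from control CM-like cells lay within the larger SD of the classes compared. Itga3 was highest in epicardial-like cells, at 2.92 ± 2.42 and detected in 9 of 13, with a difference to CM-like of 2.10, and was detected in 1 of 22 endothelial-like cells. Itgb1 was at 6.81 ± 0.73 in endothelial-like and 6.63 ± 1.00 in epicardial-like cells, 1.59 and 1.41 above control CM-like cells. Itgav was at 3.74 ± 2.24 and 3.67 ± 1.97, above CM-like by 1.26 and 1.18. Ilk was highest in epicardial-like cells, 8.31 ± 1.14, which is 2.04 above CM-like. Itga6 was nearly even, with 6.12 ± 1.32, 5.49 ± 1.00 and 5.71 ± 1.57 in endothelial-like, epicardial-like and CM-like cells. Itga5 and Ilk in endothelial-like against CM-like cells changed sign between batches (2.95 and −0.93 for Itga5, 1.75 and −1.63 for Ilk), and for Itga5 in epicardial-like cells the pooled 0.66 was −0.43 and −0.23 within the batches.

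**Figure D5:**
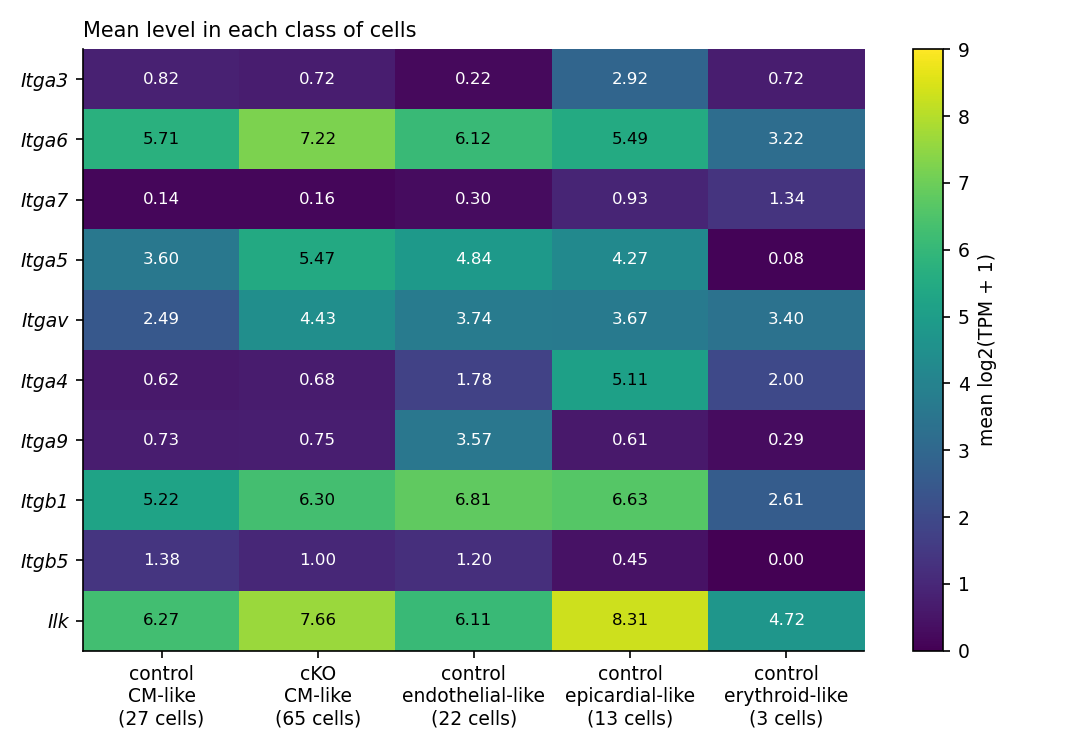
Mean log2(TPM + 1) of each gene in cKO and control CM-like cells and in the 3 other named classes, all control; the number in each square is the mean and the colour scale runs from 0 to 9. Itga4 peaked in epicardial-like cells (5.11) and Itga9 in endothelial-like cells (3.57), and neither differed between control and cKO CM-like cells by more than 0.06.

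Set beside control endothelial-like cells, cKO CM-like cells had higher mean levels of Itga6 (7.22 against 6.12), Itga5 (5.47 against 4.84) and Itgav (4.43 against 3.74). Mean Itgb1 was lower (6.30 against 6.81), with 6.42 against 6.44 in batch 1 and 6.19 against 6.98 in batch 2. Each of these differences lay within the larger SD of the classes compared. For Itga5 the order turned in batch 1, with 5.05 in cKO CM-like and 5.46 in endothelial-like cells, against 5.88 and 4.54 in batch 2. Their Itga9 (0.75) and Itga4 (0.68) lay beside 0.73 and 0.62 in control CM-like cells.

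The genes whose levels ran most like those of a member across the 65 cKO CM-like cells were sought among 8078 genes seen in most of them and are named where Spearman's rho reached 0.5. For Itga6 they were Atp2a2, the calcium pump of the sarcoplasmic reticulum (0.68), Ckap4 (0.57) and Stt3b (0.57), both proteins of the endoplasmic reticulum. They were Nadk2, Mrps33 and Asph for Itgav (0.59, 0.53 and 0.51), Tpp1, Tmem263 and Canx for Itgb1 (0.57, 0.54 and 0.53), and Slc39a13, Usp11 and Ankmy2 for Ilk (0.57, 0.55 and 0.53). No gene reached 0.5 with Itga4 or Itga5. The number of genes detected per cell had a rho between −0.01 and 0.23 with these members.

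Promoter windows of 300 bases around an annotated start were taken from RefSeq (GRCm38.p6) for 8 of the 10 genes, all but Itga6 and Itga7. Those of Itgav, Itgb1 and Itga5, which were all higher in cKO, are shown with matches on either strand to GGGCGG (GC box), GGAATG (the core bound by TEAD factors) and TATAAA in capitals; these motifs were picked after the differences were known.
Itgav, chr2:83724147-83724446, plus strand: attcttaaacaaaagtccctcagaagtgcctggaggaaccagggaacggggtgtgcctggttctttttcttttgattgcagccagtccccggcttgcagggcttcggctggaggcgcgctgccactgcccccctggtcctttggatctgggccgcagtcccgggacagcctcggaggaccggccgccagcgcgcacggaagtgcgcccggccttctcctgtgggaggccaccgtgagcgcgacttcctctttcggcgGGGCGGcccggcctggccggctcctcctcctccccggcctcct
Itgb1, chr8:128685404-128685703, plus strand: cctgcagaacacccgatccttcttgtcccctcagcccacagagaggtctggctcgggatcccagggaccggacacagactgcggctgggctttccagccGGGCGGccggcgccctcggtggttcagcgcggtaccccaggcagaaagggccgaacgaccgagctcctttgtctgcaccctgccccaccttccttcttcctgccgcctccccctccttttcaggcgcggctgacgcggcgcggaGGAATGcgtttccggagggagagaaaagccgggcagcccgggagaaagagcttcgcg
Itga5, chr15:103366742-103367041, minus strand: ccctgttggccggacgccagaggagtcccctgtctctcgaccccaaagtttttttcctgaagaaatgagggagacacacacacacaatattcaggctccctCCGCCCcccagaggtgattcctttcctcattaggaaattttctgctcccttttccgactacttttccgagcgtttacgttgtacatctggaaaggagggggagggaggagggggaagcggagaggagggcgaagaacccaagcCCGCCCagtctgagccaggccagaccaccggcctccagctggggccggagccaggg

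The windows of Itgav, Itgb1 and Itga5 held 1, 1 and 2 GC boxes, and 35.7% of all 32851 promoter windows held at least 1. Of the 8 genes with a window, Itgb1 held the TEAD letters, which 14.7% of all windows did, and none held TATAAA, against 13.6% of all. Their GC content was 67.3%, 67.3% and 58.7%, beside a median of 52.7% over all windows. Of the other members with a window, Itgb5 held 3 GC boxes, Itga4 1 and Itga9 none, the 2 windows of Ilk held none and 3, and those of Itga3 3 and 1. The Itga9 window began at 118711442, inside a plus-strand gene that GENCODE starts at 118606690. The Itga3 window with 1 GC box ended at 95069448, inside a minus-strand gene that starts at 95076801. Both thus lie away from the GENCODE start of their gene.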

How the data were processed

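The authors deposited TPM values, which they obtained with Salmon against mm10 (the submitters' processing notes name both; version and annotation release are not given in the sources used here), for cells with a high mapping rate whose reporter transcripts fitted their genotype. TPM sums to a like total in each cell and keeps no depth. Of 170 labelled samples, 143 have a column and 27 were not analysed here.

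Cells were clustered by Ward linkage on z-scored log2(TPM + 1) of 55 markers into 5 clusters, named by their markers; no doublet caller was run on these hand-picked cells. Differences were computed for genes detected (TPM above 0) in over 10 CM-like cells. Counted as past the fold was a difference of at least 1 log2 unit with the same sign in both batches. The pseudocount of 1 understates the change of low genes. The pooled difference was tested on resampled control CM-like cells with known changes, and the clustering on made-up cells. The rule of the same sign in both batches and the detection filter were not part of that test. Shares have exact Clopper-Pearson 95% intervals, and limits for a count of 0 are 3 cells of the total; both cover counting error only. Named were the 10 genes, the extremes and the genes past the fold of each list, and up to 3 genes most like each member. Members and lists were chosen with earlier results of these data known. Python 3.11.15, numpy 2.4.6, pandas 2.3.3, scipy 1.17.1 and matplotlib 3.10.9 were used. Alternatives covered the pseudocount, the filter, the clustering, the scaling and the cells included.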

Additional observations from a re-analysis of the deposited data

Results flagged for a closer look

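Results from the unnamed cells rich in mitochondrial transcripts, which entered no comparison, were held against the control cells there. The mean Itgb5 level of the 4 cKO cells was 0.84, above the highest of the 9 control cells (0.15), and came from 1 cell at 3.34. The mean Itga7 level of the same 4 cells was 0.018, against 0 in all 9 control cells, and came from 1 cell at 0.072, far under a TPM of 1. Both rest on a single cell.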

How the results depend on the processing

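No paired analysis was possible because each numbered sample is 1 cell, so numbers link nothing across genotypes, and no test was run. Of 13 alternative settings, 3 (both other filters and 6 clusters) left every member's difference identical. Across the other 10, Itga5 (1.11 to 2.40) and Itgav (1.11 to 2.51) were past the fold in 10, Itga6 (0.95 to 2.27) and Ilk (0.93 to 2.10) in 9 and Itgb1 in 4, and these 5 genes were positive in each of the 10. The number of members higher was 3 by the log2 ratio of mean TPM + 1, where Itgb1 (0.98) and Ilk (0.93) fell short, and 3 without cells of high mitochondrial or erythroid TPM, chosen after seeing the data. With all cells regardless of class, 1 member, Itga4, was lower (−1.18). The median of the other integrin chains was 0.070 without cells of high mitochondrial or erythroid TPM; the cause of these changes was not tested. Over all genes, 960 were higher and 1082 lower; these became 1630 and 1946 with a pseudocount of 0.1, 279 and 245 with 10, 2226 and 704 by the ratio of mean TPM, 1643 and 403 with 4 clusters, 730 and 1487 with median-ratio size factors, and 905 and 1501 without cells of high mitochondrial or erythroid TPM. The ratio of mean TPM moved the median of all genes to 0.19 and 4 clusters to 0.14. Of 60 detection shares, 19 moved out of their interval. The settings were a TPM of at least 1, a TPM of at least 10, and cells with 7000 to 11000 detected genes. A higher TPM cut can only lower a share. TPM hides depth, and 1 sample per genotype means that embryo, sex and genotype cannot be told apart.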

Other observations

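In epicardial-like control cells, Itgb3 held 12.1% of the summed mean TPM of beta chains, although the median cell was at 0 and the highest at 7.96 on the log2(TPM + 1) scale. Itga2b, its platelet partner, held 15.1% of alpha chain TPM in the same class, 0 in batch 1 and 19.95% in batch 2. A single cell of batch 2 carried 99.1% of the Itgb3 TPM of the class, and a single cell of batch 2 carried 98.4% of its Itga2b TPM. Without those cells the shares were 0.15% and 0.29%.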
